A study of Solanum lycopersicum with 8 samples.

Results

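The calcium sensing and signalling genes of tomato (Solanum lycopersicum) leaf were chosen by their descriptions in the deposited count table. A gene was taken when its description named calmodulin, a calcium-binding protein, a calcium-dependent protein kinase, a calcineurin B protein, a kinase that interacts with such a protein, an exchanger of cations for calcium, a channel gated by cyclic nucleotides or a glutamate receptor. The rule found 198 genes among 29081, through 318 transcripts, and each gene was represented by its transcript with the most reads. Of the 198 genes, 168 had enough reads to be tested and 30 did not, and 11 of those 30 had no read in any library. A RefSeq gene table held 196 of the 198 symbols as 192 distinct genes, because CIPK2 and SlCIPK2, GLR3.5 and SlGLR3.5, SR3L and LOC101055570, and SR4 and LOC101055569 are each symbols of 1 gene and can share reads.

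The leaves sequenced formed 4 groups: tunicamycin at 6 h, control at 6 h, tunicamycin at 2 h and control at 2 h, with 2 libraries labelled as biological replicates in each. Tunicamycin stops the attachment of N-glycans to new proteins, so that proteins misfold in the endoplasmic reticulum (ER), a state called ER stress. The series compares leaves under this stress with control leaves of the same time. The dose, the way the drug was given, what the control leaves received, the cultivar and the age of the plants were not stated in those sources. RNA came from whole leaves, in which fewer cells of a type and less RNA per cell cannot be told apart.

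Plant cells hold little free calcium in the cytosol and use short rises in it as a signal. Channels such as the cyclic nucleotide-gated channels and the glutamate receptor-like channels let calcium in, and pumps and exchangers take it out again, into the vacuole, the ER or the cell wall. Sensor proteins with EF-hand loops, among them calmodulin, the calmodulin-like proteins (CMLs) and the calcineurin B-like proteins (CBLs), bind the ion and pass the signal to kinases and transcription factors. The ER is a calcium store, and several of its folding chaperones bind the ion.

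Totals per library ran from 4689769 to 122784850 counts, and within a group the larger total was 5.49 to 9.98 times the smaller. Replicate 1 had the larger total (the deeper library) in both tunicamycin groups, and replicate 2 in both control groups. Levels below are CPM (a count relative to its library's total) scaled by TMM, a normalization for library composition, and are not divided by transcript length, so levels of different genes are not compared. Markers of leaf mesophyll, 25 genes for chlorophyll-binding proteins, the Rubisco small subunit and its activase, summed to between 22350 and 47450 CPM, with at most 1 of the 25 at 0 in any library. Their sum was higher in both tunicamycin libraries than in both control libraries at 2 h (36870 and 44180 CPM in tunicamycin leaves, 34000 and 30140 CPM in control leaves), and its part in the results at 2 h was not tested. The groups overlapped for the mesophyll sum at 6 h, and at both times for markers of vascular cells (17 genes, 105 to 310 CPM), dividing cells (13 genes, 304 to 933 CPM) and guard cells (12 genes, 41.5 to 100.4 CPM).

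Of the calcium genes tested, 7 fell and 1 rose with tunicamycin over both times, that is, in the mean of the differences at 6 h and at 2 h. The genes that fell encode a CML, a CBL sensor, a pair of calcium-dependent protein kinases, a pair of calmodulin-binding transcription factors of the CBP60 family and the exchanger CCX5, and the gene that rose encodes another exchanger, CCX1-like. A gene was called when its Benjamini-Hochberg adjusted p in edgeR's quasi-likelihood test, taken over all 34483 transcripts tested, was under 0.05. Over both times, 1.3% of all 20272 genes tested were called lower and 0.158% higher. At 6 h alone 4 members fell and 1 rose, where 0.355% of all genes fell and 0.0345% rose. At 2 h alone edgeR called no member, with 21 lower and 6 higher at an unadjusted p under 0.05. Of all genes, edgeR called 0.0543% in either direction at 2 h. DESeq2 called 2 members at 2 h. The share of all genes that DESeq2 called is not given, so its counts, also by role below, are not read as particular to calcium genes. All 5 members called at 6 h were also called over both times, a comparison that shares its samples with the other ones. The count at 6 h was 0 when only the 6 h groups were fitted or without replicate 1 of tunicamycin 6 h, 1 without replicate 2 of tunicamycin 6 h or of control 2 h, 2 without either tunicamycin 2 h library, and 3 without replicate 2 of control 6 h or replicate 1 of control 2 h. Over both times it was 1 without replicate 1 of tunicamycin 2 h or replicate 2 of control 2 h, 4 and 5 without the other library of those groups, and 12 without replicate 2 of control 6 h.

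**Figure D1:**
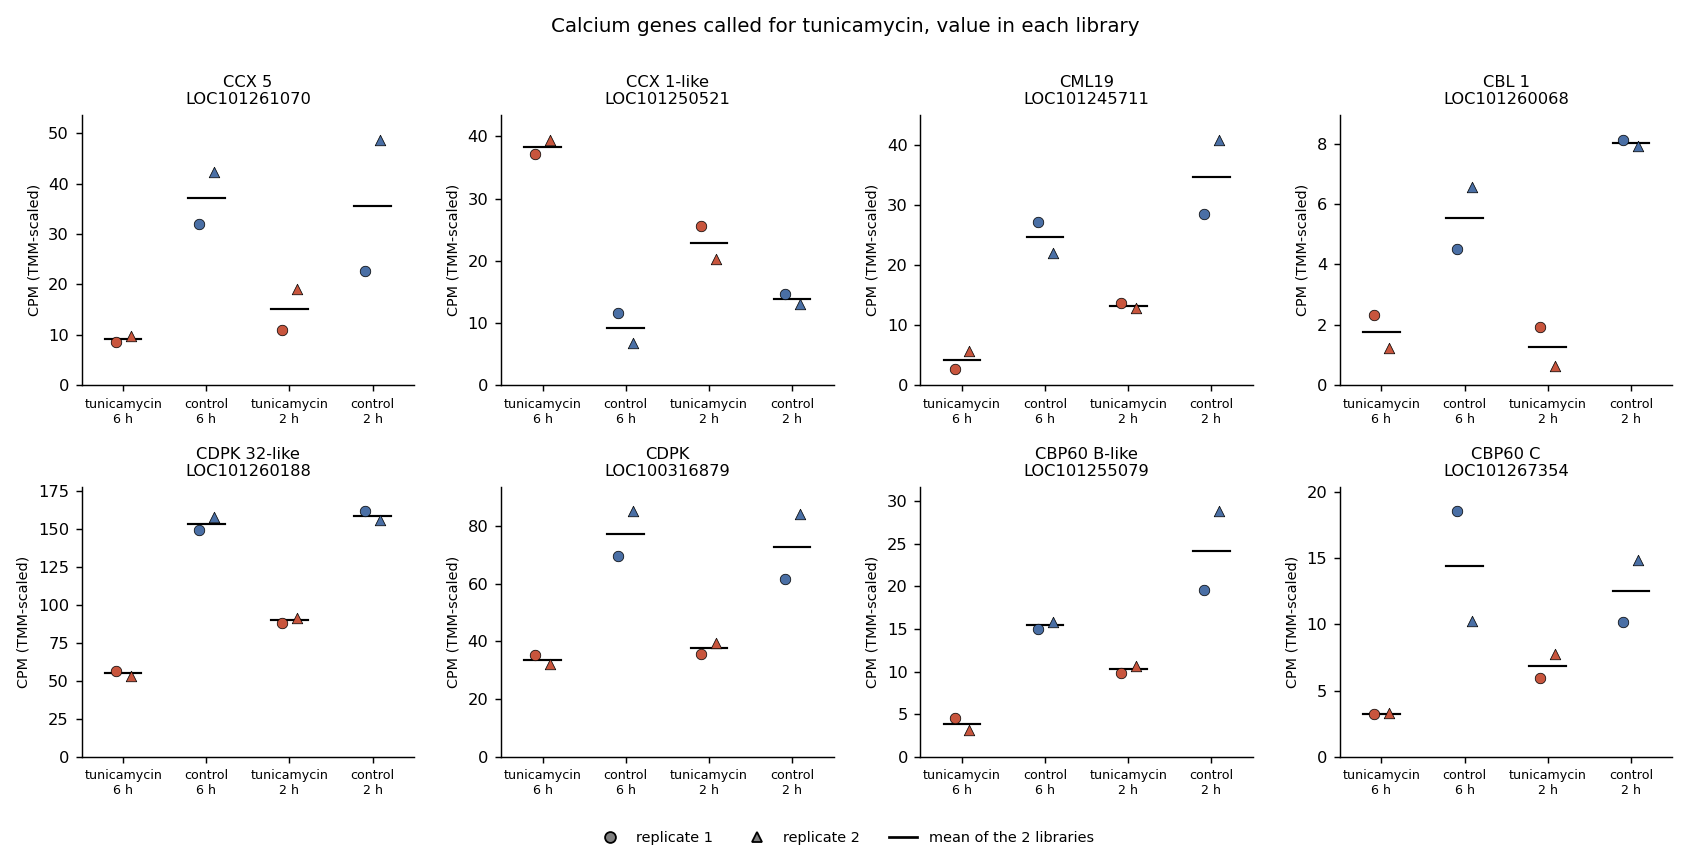
Level of each of the 8 called calcium genes in each of the 8 libraries, in TMM-scaled CPM on an axis that starts at 0; circles are replicate 1, triangles replicate 2, and the line is the mean of the 2 libraries of a group. Both tunicamycin libraries lie below both control libraries at each time for 7 genes, and above them for CCX1-like (LOC101250521).

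At the looser threshold of an unadjusted p under 0.05, more members were lower than higher. These counts include the called members. Over both times 34 members were lower and 7 higher, which is 20.2% and 4.17% of those tested, against 5.94% and 3.99% of all genes. At 6 h, 22 were lower and 3 higher, against 3.72% and 1.57% of all genes. The 21 lower and 6 higher members at 2 h stood against 4.71% and 4.05% of all genes. The comparisons at 6 h and at 2 h share no library, but their p-values come from the same fit of all 8 libraries. At both times replicate 1 was the deeper library in tunicamycin leaves and replicate 2 in control leaves. The log2 fold change was below 0 at both times for 76 of the 168 members (45.2%) and above 0 at both for 37 (22%), whereas of all genes 26.6% were below 0 at both times and 32.9% above.

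The median log2 fold change of the members was -0.15 at 6 h and -0.14 at 2 h, beside 0.04 and 0.02 for all genes. Both tunicamycin libraries lay below both control libraries for 44 members at 6 h, 26.2% of those tested against 11.8% of all genes, and for 51 members at 2 h, 30.4% against 20%. They lay above for 17 members at 6 h (10.1%, all genes 13.9%) and for 27 at 2 h (16.1%, all genes 18.8%). At both times together, 24 members (14.3%) were separated downward and 4 (2.38%) upward, against 4.65% and 3.57% of all genes. Taken between the deeper libraries only, the members' median was -0.10 at 6 h and -0.11 at 2 h, and between the shallower libraries only it was -0.16 at 6 h and -0.21 at 2 h, while the medians of all genes lay between -0.00 and 0.04.

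**Figure D2:**
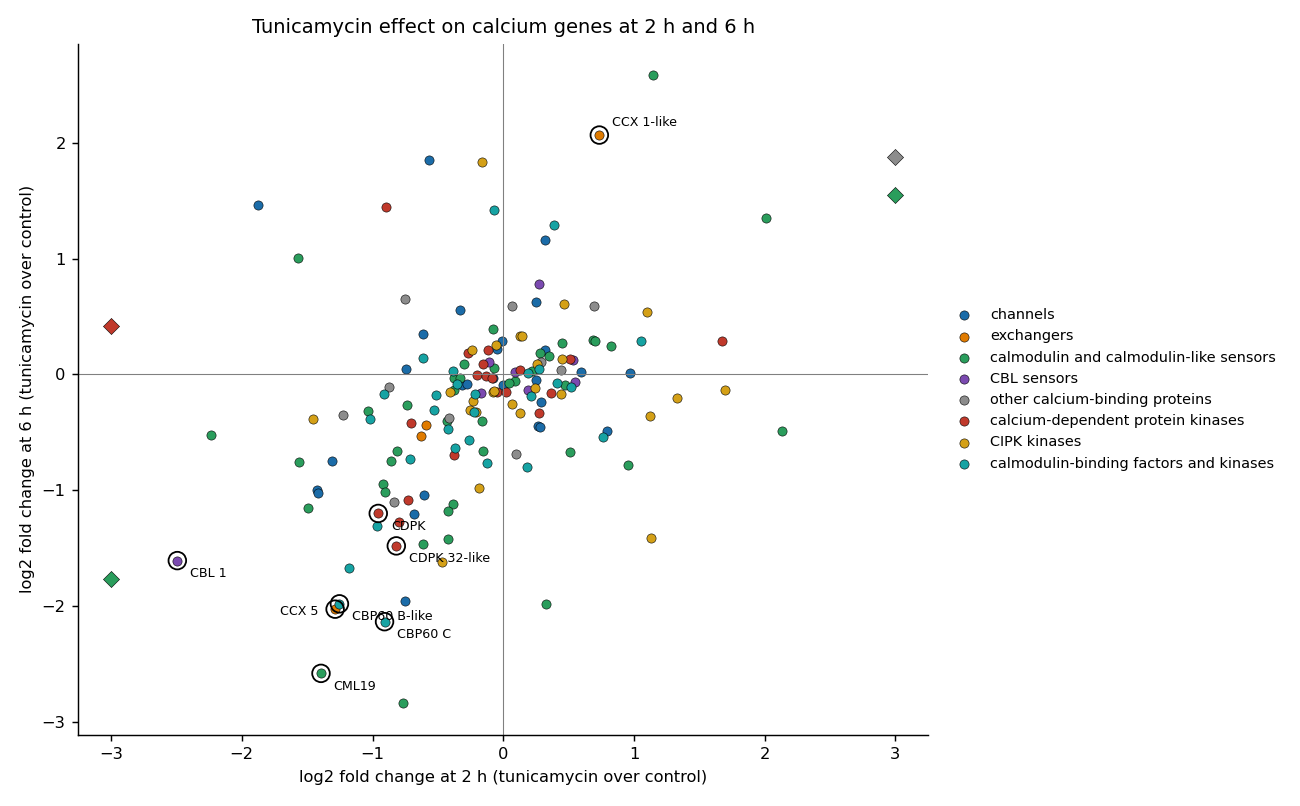
Log2 fold change of tunicamycin over control at 6 h (vertical axis) against that at 2 h (horizontal axis) for the 168 members tested, coloured by role; circled and labelled points are the 8 called genes, and diamonds mark 4 members beyond 3 on the 2 h axis, drawn at its edge. More points lie in the lower left quadrant (76 members) than in the upper right (37 members).

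The medians differed by role. Over both times the median log2 fold change was -0.55 for the 4 exchangers tested, -0.29 for 28 calmodulin-binding factors and kinases, -0.25 for 43 calmodulins and calmodulin-like sensors, -0.07 for 21 calcium-dependent protein kinases and -0.06 for 27 channels. It was -0.05 for 11 other calcium-binding proteins, 0.03 for 26 CBL-interacting kinases and 0.04 for 8 genes in the CBL group, beside 0.04 for all genes. These are descriptions, and the roles were not tested against each other.

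**Figure D3:**
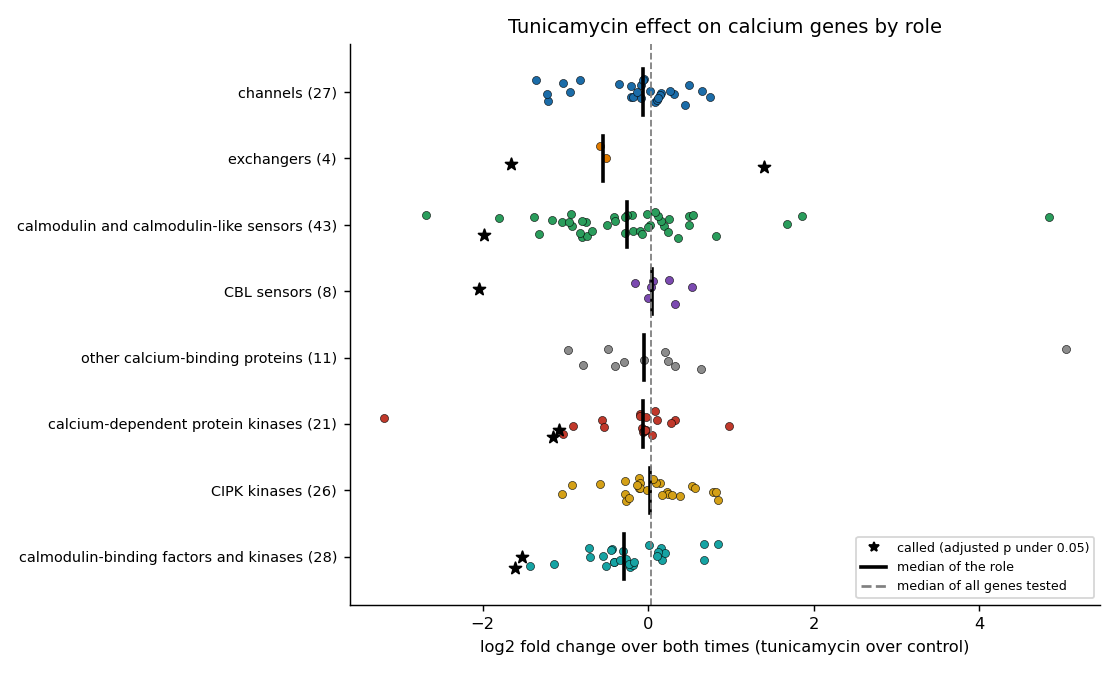
Log2 fold change of tunicamycin over control, over both times, of each member tested (points, spread vertically at random within a role), with the median of each role as a black bar, called genes as stars and the median of all genes tested as a dashed line. The number of members tested is in brackets. Every bar but that of the CBL group lies left of the dashed line, and those of the exchangers, the calmodulin-binding factors and the calmodulins lie farthest left.

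Among the channels, 27 of 29 members were tested, and for tunicamycin edgeR and DESeq2 both called 0 at 6 h, at 2 h and over both times. Over both times 6 of the 27 were lower and 1 higher at an unadjusted p under 0.05, against 5.94% and 3.99% of all genes. The members lower in this way were the glutamate receptors GLR2.2, GLR2.3 (LOC101262020) and GLR2.5 (LOC101265038) and the cyclic nucleotide-gated channels CNGC5, LOC101244669 and LOC101250219, the last 2 described as CNGC1-like and CNGC1. GLR2.2 had 5.396 and 4.44 CPM in tunicamycin leaves and 11.7 and 11.1 CPM in control leaves at 6 h, and 5.08 and 8.68 CPM in tunicamycin leaves and 11.4 and 10.3 CPM in control leaves at 2 h. It was the only channel with both tunicamycin libraries below both control libraries at each time, with a log2 fold change of -0.94 ± 0.28 (SE) over both times and an adjusted p of 0.177 in edgeR.

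GLR2.3 had 3.10 and 2.87 CPM in tunicamycin leaves and 17.9 and 5.59 CPM in control leaves at 6 h, and 4.83 and 9.33 CPM in tunicamycin leaves and 6.51 and 15.97 CPM in control leaves at 2 h. Its libraries overlapped at 2 h and were apart at 6 h (log2 fold change -1.95 ± 0.58, adjusted p 0.354). The 6 tested members of the GLR2 subfamily had a median of -0.65 over both times, and the 6 of the GLR3 subfamily, the one best known in Arabidopsis for long-distance wound signals, a median of -0.09. GLR3.5 and SlGLR3.5 are symbols of 1 gene, so the 6 GLR3 members may not be distinct genes. The genes of GLR2.1, GLR2.2, GLR2.3, GLR2.4 and GLR2.5 follow each other with no gene between them in the RefSeq table (assembly SLM_r2.1). Of these, GLR2.1 had a log2 fold change of 0.49, GLR2.4 was not tested, and the other 3 lay between -1.35 and -0.94. GLR3.2 (LOC101252791), which had the smallest unadjusted p among the channels when the effects at 6 h and 2 h were compared, had 33.7 and 15.8 CPM in tunicamycin leaves and 19.2 and 50.4 CPM in control leaves at 6 h, and 62.1 and 38.6 CPM in tunicamycin leaves and 23.2 and 34.8 CPM in control leaves at 2 h. Its libraries overlapped at 6 h and were higher with tunicamycin at 2 h (difference -1.28 ± 0.67, unadjusted p 0.0776, adjusted p 1).

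The CNGC1-like channel LOC101244669 had 3.11 and 1.09 CPM in tunicamycin leaves and 6.44 and 2.56 CPM in control leaves at 6 h, and 4.70 and 6.75 CPM in tunicamycin leaves and 9.97 and 19.8 CPM in control leaves at 2 h. At 2 h its tunicamycin libraries were the lower ones (log2 fold change -1.43 ± 0.57, adjusted p 0.608), and at 6 h the libraries overlapped. Its control libraries were also lower at 6 h than at 2 h (log2 fold change -1.77, adjusted p 0.618). CNGC2 (LOC101266887), a channel that in Arabidopsis takes part in immunity together with CNGC4, had 93.8 and 59.7 CPM in tunicamycin leaves and 64.7 and 68.1 CPM in control leaves at 6 h, and 64.8 and 111 CPM in tunicamycin leaves and 59.4 and 80.5 CPM in control leaves at 2 h. It overlapped at both times (0.27 ± 0.26 over both times, adjusted p 0.951). CNGC4 (LOC101265895) is given below with the comparison of times.

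The pair of exchangers called moved in opposite directions. Cation/calcium exchangers (CCX) are membrane proteins that move cations such as calcium across membranes in exchange for other cations. CCX5 (LOC101261070) had 8.66 and 9.70 CPM in tunicamycin leaves and 32.1 and 42.4 CPM in control leaves at 6 h, and 10.96 and 19.1 CPM in tunicamycin leaves and 22.6 and 48.7 CPM in control leaves at 2 h. Both tunicamycin libraries were below both control libraries at each time. It fell by 1.66 ± 0.28 on the log2 scale over both times (adjusted p 0.00858) and by 2.03 ± 0.40 at 6 h (adjusted p 0.0486), while at 2 h the value was -1.29 ± 0.40 (adjusted p 0.401). The size at 2 h differed with depth: the deeper libraries gave -2.15 and the shallower gave -0.24.

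CCX1-like (LOC101250521), the member that rose, had 37.1 and 39.5 CPM in tunicamycin leaves and 11.6 and 6.80 CPM in control leaves at 6 h, and 25.5 and 20.3 CPM in tunicamycin leaves and 14.7 and 13.1 CPM in control leaves at 2 h. Every tunicamycin library lay above every control library, also across the times. Its log2 fold change was 2.07 ± 0.34 at 6 h (adjusted p 0.0185), 0.74 ± 0.34 at 2 h (adjusted p 0.677) and 1.40 ± 0.24 over both times (adjusted p 0.00858). The difference between the effect at 6 h and at 2 h was 1.33 ± 0.47, with an unadjusted p of 0.013 and an adjusted p of 1. Neither of the other exchangers tested, LOC101265300 and LOC101250709, both CCX4-like, was called, with log2 fold changes of -0.58 and -0.51 over both times.

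Calmodulins and calmodulin-like sensors are small EF-hand proteins that change shape on binding calcium and then bind their targets. Of 50 such members 43 were tested, and 1, CML19 (LOC101245711), was called. At an unadjusted p under 0.05, 11 were lower and 2 higher over both times, against 5.94% and 3.99% of all genes. CML19 had 2.73 and 5.74 CPM in tunicamycin leaves and 27.2 and 21.99 CPM in control leaves at 6 h, and 13.6 and 12.9 CPM in tunicamycin leaves and 28.5 and 40.8 CPM in control leaves at 2 h. All 4 tunicamycin libraries were below all 4 control libraries. It fell by 2.58 ± 0.39 on the log2 scale at 6 h (adjusted p 0.0126) and by 1.99 ± 0.27 over both times (adjusted p 0.00207), and at 2 h the value was -1.39 ± 0.38 (adjusted p 0.277). The deeper libraries alone gave -2.99 at 6 h and -1.58 at 2 h, and the shallower alone -2.24 and -1.14. It was the only member that passed the threshold over both times under all 14 alternatives tried.

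CML18 (LOC101252553) came next in this role, with 5.67 and 8.88 CPM in tunicamycin leaves and 19.7 and 20.03 CPM in control leaves at 6 h, and 21.2 and 9.33 CPM in tunicamycin leaves and 21.97 and 25.6 CPM in control leaves at 2 h. Its tunicamycin libraries were the lower ones at both times, and it missed the threshold (-1.04 ± 0.28 over both times, adjusted p 0.113). CML24 (LOC101256237), CML49 (LOC101266882), the second CML18 (LOC101244797) and the second CML19 (LOC101257927) were likewise lower at both times without overlap, with log2 fold changes between -0.94 and -0.75 over both times and adjusted p between 0.231 and 0.348. So was CML22 (LOC101266458), whose levels were at most 1.42 CPM, at -1.33 with an adjusted p of 0.83. These 5 were named after their values were seen.

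The 7 calmodulins proper had a median of -0.28, and 6 were below 0. CaM2 had 180 and 179 CPM in tunicamycin leaves and 253 and 556 CPM in control leaves at 6 h, and 444 and 348 CPM in tunicamycin leaves and 500.0 and 561 CPM in control leaves at 2 h. Its tunicamycin libraries were below its control libraries at both times, with a log2 fold change of -0.80 ± 0.31 over both times and an adjusted p of 0.431. CaM6 was also lower at both times without overlap (-0.74, adjusted p 0.37). CaM1, by contrast, had 255 and 449 CPM in tunicamycin leaves and 478 and 261 CPM in control leaves at 6 h and a log2 fold change of -0.01 over both times. At 6 h the CaM1 libraries within each group lay farther apart than the means of the groups. Genes for calmodulin can share reads where their sequences are alike, so these values are uncertain to that degree.

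A few low-count sensors lay above the controls. CML44 (LOC101245247) had 34 counts in the tunicamycin libraries at 2 h and 0 in the control libraries. That is 11.4-fold higher against a floor of 3 counts over the 2 control libraries. LOC101265802, a calcium-binding protein KRP1-like, had 38 counts in tunicamycin leaves and 0 in control leaves at 2 h, 12.8-fold higher against that floor. Neither was called (adjusted p 0.227 and 0.213 over both times), and the floor covers counting error only. At counts of 1 to 20, between 73.7% and 81.4% of the values in a library were even numbers, so counts this low may not be independent molecules. The folds against the floor are therefore not firm lower bounds. Both genes were named after their values were seen.

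CBL sensors bind their partner kinases, the CIPKs, and bring many of them to membranes. Of 13 members in this group 8 were tested and 4 had no read. Among the 8, SOS2 is itself a CIPK that falls here by its description. The CBL1-type gene LOC101260068 had 2.32 and 1.23 CPM in tunicamycin leaves and 4.53 and 6.56 CPM in control leaves at 6 h, and 1.91 and 0.643 CPM in tunicamycin leaves and 8.14 and 7.94 CPM in control leaves at 2 h. The tunicamycin libraries were the lower ones at both times, and it fell by 2.05 ± 0.40 on the log2 scale over both times (adjusted p 0.0195). Its shallower tunicamycin libraries held 18 counts at 6 h and 4 counts at 2 h. It lost the call when any 1 of the 4 libraries at 2 h was left out, with adjusted p up to 0.125. Neither time alone passed in edgeR (-1.61 ± 0.54 with adjusted p 0.535 at 6 h, -2.49 ± 0.58 with adjusted p 0.198 at 2 h). DESeq2 called 1 gene of the group at 2 h and 0 at 6 h.

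No other gene of the group was called by edgeR, and the other 7 lay between -0.16 and 0.53 over both times. The gene named CBL1 in the table had 14.9 and 15.02 CPM in tunicamycin leaves and 16.9 and 15.9 CPM in control leaves at 6 h, with a log2 fold change of 0.03 over both times. CBL10, which in Arabidopsis recruits SOS2 under salt, had 17.5 and 9.83 CPM in tunicamycin leaves and 8.55 and 16.5 CPM in control leaves at 6 h, and 12.96 and 11.3 CPM in tunicamycin leaves and 6.92 and 9.61 CPM in control leaves at 2 h. It overlapped at 6 h and was higher with tunicamycin at 2 h (0.33 ± 0.29 over both times, adjusted p 0.933). LOC101249611 overlapped at both times, with 52.0 and 62.6 CPM in tunicamycin leaves and 70.5 and 57.3 CPM in control leaves at 6 h and a log2 fold change of -0.16 ± 0.24 over both times.

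The CIPKs, the partner kinases of the CBLs, showed no call over both times among 26 tested, by edgeR or by DESeq2. At 6 h DESeq2 called 1 of them and edgeR 0. Over both times 2 were lower and 1 higher at an unadjusted p under 0.05, near the 5.94% and 3.99% of all genes. Over both times 13 were above 0 and 13 below, and those below include both CIPK2 and SlCIPK2, symbols of 1 gene. The CIPK14-type gene LOC101254823, which is not the member with the symbol CIPK14, had 15.9 and 11.1 CPM in tunicamycin leaves and 20.2 and 15.3 CPM in control leaves at 6 h, and 6.86 and 3.54 CPM in tunicamycin leaves and 11.8 and 17.5 CPM in control leaves at 2 h. It overlapped at 6 h and was lower at 2 h (-1.46 ± 0.41, adjusted p 0.3). CIPK25 (LOC101258074) had 7.85 and 11.6 CPM in tunicamycin leaves and 2.82 and 2.62 CPM in control leaves at 6 h, and 12.4 and 6.59 CPM in tunicamycin leaves and 13.8 and 8.24 CPM in control leaves at 2 h. Only its control libraries at 6 h stood low, so the log2 fold change was 1.84 ± 0.44 at 6 h (adjusted p 0.129) and -0.16 ± 0.43 at 2 h, and the difference of 2.00 ± 0.62 had an unadjusted p of 0.00563 and an adjusted p of 1. CIPK3 (LOC101257694) overlapped at both times, with 152 and 122 CPM in tunicamycin leaves and 109 and 216 CPM in control leaves at 6 h and a log2 fold change of -0.09 ± 0.30 over both times.

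Calcium-dependent protein kinases (CDPKs) join a calcium sensor and a kinase in 1 protein. Of 29 members 21 were tested and 2 fell over both times. At an unadjusted p under 0.05, 6 were lower and none higher, against 5.94% and 3.99% of all genes. CDPK32-like (LOC101260188) had 56.7 and 53.3 CPM in tunicamycin leaves and 149 and 158 CPM in control leaves at 6 h, and 88.3 and 91.7 CPM in tunicamycin leaves and 162 and 156 CPM in control leaves at 2 h. The replicates lay close together, and every tunicamycin library was below every control library. It fell by 1.15 ± 0.23 on the log2 scale over both times (adjusted p 0.0249), with -1.48 ± 0.33 at 6 h (adjusted p 0.0982) and -0.82 ± 0.33 at 2 h (adjusted p 0.608). The deeper and the shallower libraries gave -1.47 and -1.49 at 6 h, and -0.82 each at 2 h.

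The CDPK LOC100316879 had 35.2 and 32.2 CPM in tunicamycin leaves and 69.5 and 85.0 CPM in control leaves at 6 h, and 35.8 and 39.6 CPM in tunicamycin leaves and 61.4 and 84.1 CPM in control leaves at 2 h. All tunicamycin libraries were again below all control libraries, and it fell by 1.08 ± 0.23 over both times (adjusted p 0.0292). Both LOC100316879 and CDPK32-like lost the call over both times when any tunicamycin library or any control 2 h library was left out, with adjusted p up to 0.26 and 0.166. CDPK18-like (LOC101260391), CDPK29 (LOC101246133) and CDPK1 were lower at both times without overlap and were not called, with log2 fold changes of -0.91, -1.03 and -0.56 and adjusted p of 0.168, 0.402 and 0.529. CDPK18-like had 9.07 and 5.94 CPM in tunicamycin leaves and 17.7 and 14.5 CPM in control leaves at 6 h, and 20.02 and 10.45 CPM in tunicamycin leaves and 23.8 and 27.4 CPM in control leaves at 2 h. CDPK2-like (LOC101256435) had 0 counts in the tunicamycin libraries at 2 h and 14 counts in the control libraries. That is 4.62-fold lower against the floor of 3 counts, which covers counting error only. Counts this low may not be independent molecules, so the fold is not a firm lower bound. The libraries overlapped at 6 h, and the gene was not called (adjusted p 0.608 at 2 h in edgeR).

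Calmodulin-binding factors and kinases act after calmodulin. CBP60 proteins are plant transcription factors, and in Arabidopsis members of this family switch on genes for salicylic acid synthesis. Of 31 members of the role 28 were tested, and 2, both CBP60 genes, fell. CBP60 B-like (LOC101255079) had 4.57 and 3.14 CPM in tunicamycin leaves and 14.99 and 15.9 CPM in control leaves at 6 h, and 9.89 and 10.6 CPM in tunicamycin leaves and 19.5 and 28.8 CPM in control leaves at 2 h. All 4 tunicamycin libraries were below all 4 control libraries. It fell by 1.98 ± 0.36 on the log2 scale at 6 h (adjusted p 0.0343) and by 1.62 ± 0.25 over both times (adjusted p 0.00517), with -1.25 ± 0.35 at 2 h (adjusted p 0.316).

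CBP60 C (LOC101267354) had 3.24 and 3.28 CPM in tunicamycin leaves and 18.5 and 10.2 CPM in control leaves at 6 h, and 5.96 and 7.72 CPM in tunicamycin leaves and 10.2 and 14.9 CPM in control leaves at 2 h. The tunicamycin libraries were the lower ones at both times, and it fell by 2.13 ± 0.41 at 6 h (adjusted p 0.0452) and by 1.52 ± 0.29 over both times (adjusted p 0.0173). At 2 h the value was -0.91 ± 0.41, and there the deeper libraries gave -1.31 and the shallower -0.40.

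All 10 CBP60 members were tested, and 9 were below 0 over both times, with a median of -0.62. CBP60 B (LOC101255950) missed the threshold at -1.14 ± 0.28 (adjusted p 0.071), with both tunicamycin libraries below both control libraries at each time, and CBP60 D (LOC101245373) was the 1 above 0, at 0.16. In the RefSeq gene order, 6 of the 10 lie in 1 run with at most 1 gene between neighbours: CBP60 A (LOC101256576), 3 CBP60 A-like genes (LOC101255977, LOC101255381 and LOC101248289), CBP60 B (LOC101255677) and CBP60 B-like. Their log2 fold changes over both times ran from -1.62 to -0.31, and only CBP60 B-like was called. The A-like gene LOC101255381 had 1.47 and 1.23 CPM in tunicamycin leaves and 2.21 and 0.932 CPM in control leaves at 6 h, and 2.88 and 1.77 CPM in tunicamycin leaves and 5.70 and 3.51 CPM in control leaves at 2 h. It overlapped at 6 h and was lower at 2 h.

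Over both times edgeR called no other gene of the role, while DESeq2 called 4 genes in it against the 2 of edgeR. The SR and CAMTA factors, transcription factors that bind calmodulin, had a median of -0.19 over 7 symbols tested, between -0.45 and 0.67. SR3L and SR4 each share a gene with another symbol, so the 7 may not be distinct genes. The receptor-like cytoplasmic kinase CRCK2 (LOC101255141) was lower at both times without overlap, at -1.43 ± 0.37 (adjusted p 0.0982). CBP25 (LOC101251527) had 241 and 271 CPM in tunicamycin leaves and 412 and 347 CPM in control leaves at 6 h, and 282 and 207 CPM in tunicamycin leaves and 261 and 326 CPM in control leaves at 2 h. It was lower at 6 h and overlapped at 2 h (-0.42 ± 0.27 over both times, adjusted p 0.852).

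**Figure D4:**
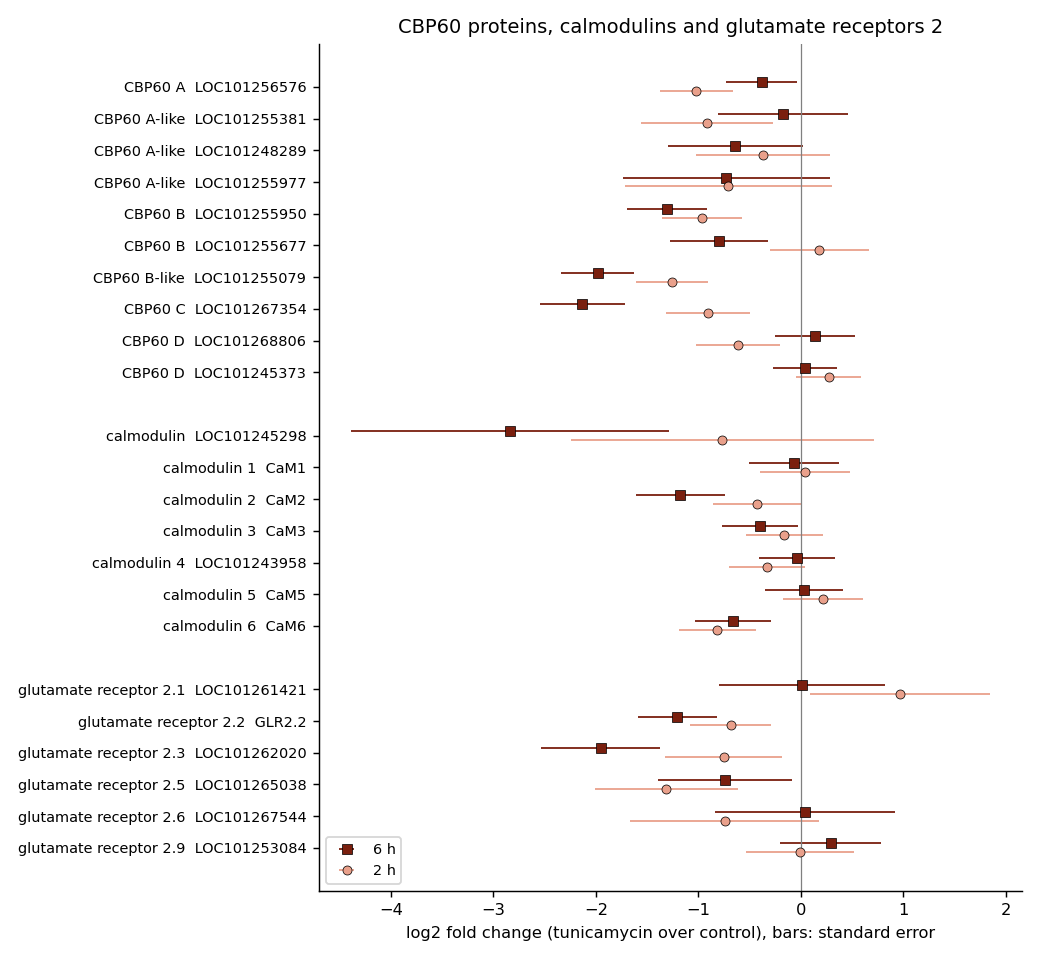
Log2 fold change of tunicamycin over control at 6 h (squares) and at 2 h (circles) for 23 members: the CBP60 proteins, the calmodulins and the tested glutamate receptors of the GLR2 subfamily; bars are standard errors. CBP60 B-like (-1.98 at 6 h) and CBP60 C (-2.13 at 6 h) lie farthest left in their family, and GLR2.1 lies to the right of GLR2.2 and GLR2.3.

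Among the other calcium-binding proteins 11 of 12 were tested and edgeR called none over both times, while DESeq2 called 2. At an unadjusted p under 0.05, 2 were lower and 2 higher, against 5.94% and 3.99% of all genes. The protein CAST (LOC101256817) had 56.9 and 73.8 CPM in tunicamycin leaves and 131 and 148 CPM in control leaves at 6 h, and 80.5 and 63.8 CPM in tunicamycin leaves and 119 and 139 CPM in control leaves at 2 h. All tunicamycin libraries were below all control libraries, and the log2 fold change over both times was -0.97 ± 0.24 (adjusted p 0.0797). CP1 (LOC101264550) had 34.1 and 42.9 CPM in tunicamycin leaves and 50.1 and 47.9 CPM in control leaves at 6 h, and 20.4 and 18.3 CPM in tunicamycin leaves and 37.6 and 52.8 CPM in control leaves at 2 h. It too was lower at both times, with log2 fold changes of -0.35 ± 0.31 at 6 h and -1.23 ± 0.32 at 2 h (adjusted p 0.257).

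Between 6 h and 2 h edgeR called no calcium gene in either arm. In tunicamycin leaves edgeR called 0.765% of all genes. There 31 members (18.5%) had an unadjusted p under 0.05, against 12% of all genes, with 10 of them higher and 21 lower at 6 h. In control leaves edgeR called 0.306% of all genes, and 10 members (5.95%) had an unadjusted p under 0.05, against 5.93% of all genes. DESeq2 called 4 members in tunicamycin leaves and 2 in control leaves, and its share over all genes is not given here. For the difference between the tunicamycin effects at 6 h and 2 h, 0% of all genes and no member were called, also by DESeq2, and 6 members (3.57%) had an unadjusted p under 0.05, against 2.86% of all genes.

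CNGC4 (LOC101265895), which in Arabidopsis forms a channel with CNGC2, had 66.4 and 41.0 CPM at 6 h and 12.6 and 19.3 CPM at 2 h in tunicamycin leaves, and 14.3 and 33.5 CPM at 6 h and 15.1 and 10.54 CPM at 2 h in control leaves. The tunicamycin libraries at 6 h were above all others (log2 fold change of 6 h over 2 h 1.77 ± 0.43, adjusted p 0.0926; of tunicamycin over control at 6 h 1.16 ± 0.41, adjusted p 0.622). The CNGC4-like gene LOC101246478 had 63.5 and 13.3 CPM at 6 h and 3.52 and 1.61 CPM at 2 h in tunicamycin leaves, and 3.92 and 17.1 CPM at 6 h and 7.73 and 1.73 CPM at 2 h in control leaves. The gene is named because of its place in the authors' table, its replicates lay far apart in all groups, and it was not called here (6 h over 2 h in tunicamycin leaves 3.80 ± 1.18, adjusted p 0.318), whereas the authors' deposited table gives a false discovery rate of 2.15e-14.

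For CIPK25 the log2 fold change of 6 h over 2 h was -0.00 in tunicamycin leaves and -2.00 ± 0.45 in control leaves (adjusted p 0.134), the smallest unadjusted p of its role there. In control leaves CML1 (LOC101266296) had 3.72 and 3.69 CPM at 6 h and 13.4 and 5.66 CPM at 2 h, and CDPK2-like LOC101257238 had 4.23 and 6.68 CPM at 6 h and 15.1 and 7.60 CPM at 2 h. Both were lower at 6 h without overlap and were not called (adjusted p 0.817 and 0.98). In tunicamycin leaves the CBL4 gene LOC101258661 had 6.54 and 3.14 CPM at 6 h and 8.79 and 7.24 CPM at 2 h, lower without overlap (adjusted p 0.679).

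In the authors' deposited tables, made by a test that is not named, 4 members were lower and 1 higher at a false discovery rate under 0.05 for tunicamycin at 6 h, and they are the same 5 genes as called here. For 2 h the authors' deposited table has 7 members lower and 1 higher. The 7 are the CBL1-type gene LOC101260068, the CIPK14-type gene LOC101254823, CML19, CBP60 B-like, CNGC1-like LOC101244669, CCX5 and CP1, and the 1 higher is the CIPK11-type gene LOC101247723, not the member with the symbol CIPK11, at 1.35 on the log2 scale. LOC101247723 had 55.2 and 11.3 CPM in tunicamycin leaves and 11.4 and 15.3 CPM in control leaves at 2 h, so that 1 library stood apart and the groups overlapped (adjusted p 0.737 here). Of all genes in the authors' deposited tables, 0.272% were lower and 0.0378% higher at 6 h, and 1.24% lower and 1.06% higher at 2 h. For 6 h against 2 h in tunicamycin leaves the authors' deposited table has 4 members lower and 2 higher, and of all 29081 genes 568 are lower (1.95%) and 295 higher. The 2 higher are CNGC4 (LOC101265895, false discovery rate 0.000166) and CNGC4-like LOC101246478, and the 4 lower are CML19 (LOC101245711, 0.00551), the CIPK1-type gene LOC101249805, CBP60 A-like LOC101248289 and the calcium-binding protein LOC101253871.

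Other genes of calcium handling and signalling, outside the rule, were followed through a list of 93 genes. It holds calcium pumps, vacuolar and sodium/calcium exchangers, annexins, channels and uniporters, and also IQ-DOMAIN proteins, CDPK-related kinases and NADPH oxidases, which do not transport calcium, and 76 of the 93 were tested. Over both times 5 fell and none rose, and at 6 h 2 fell. Of all genes, 1.3% fell and 0.158% rose over both times, and 0.355% fell at 6 h. Of the 5, 4 are calcium-transporting ATPases, the pumps that drive calcium out of the cytosol, and the fifth is a mitochondrial calcium uniporter. Of these pumps 11 were tested, and the 4 called are all described as plasma membrane-type. LOC101257236 and LOC101256303, described as ER-type pumps, were not called. Their log2 fold changes over both times were -0.33 and 0.25 (adjusted p 0.904 and 0.968 in edgeR). LOC101246688, described as ATPase 2-like of the plasma membrane type, had 62.2 and 84.9 CPM in tunicamycin leaves and 505 and 427 CPM in control leaves at 6 h, and 78.7 and 111 CPM in tunicamycin leaves and 267 and 578 CPM in control leaves at 2 h. All tunicamycin libraries were well below all control libraries. It fell by 2.66 ± 0.46 on the log2 scale at 6 h (adjusted p 0.0251) and by 2.41 ± 0.32 over both times (adjusted p 0.0018).

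The other 3 pumps called over both times were ATPase 13 (LOC104649390, -2.05 ± 0.30, adjusted p 0.00308), the second ATPase 2-like gene (LOC101260388, -2.17 ± 0.35, adjusted p 0.00622) and ATPase 11 (LOC101262099, -1.14 ± 0.25, adjusted p 0.041). ATPase 13 had 8.33 and 13.6 CPM in tunicamycin leaves and 47.9 and 37.7 CPM in control leaves at 6 h, and 6.28 and 7.72 CPM in tunicamycin leaves and 17.3 and 42.3 CPM in control leaves at 2 h. Calcium uniporter 6 (LOC101266343), which takes calcium into mitochondria, had 9.86 and 10.9 CPM in tunicamycin leaves and 30.9 and 43.0 CPM in control leaves at 6 h, and 17.5 and 16.1 CPM in tunicamycin leaves and 26.5 and 35.6 CPM in control leaves at 2 h. It fell by 1.83 ± 0.32 at 6 h (adjusted p 0.0283) and by 1.36 ± 0.22 over both times (adjusted p 0.00701). The calls at 6 h of the uniporter and of LOC101246688 were both lost when only the 6 h groups were fitted. Across the alternatives tried, the log2 fold change at 6 h ran from -2.042 to -1.575 for the uniporter and from -2.903 to -2.453 for LOC101246688. All 5 genes had both tunicamycin libraries below both control libraries at each time. Without replicate 1 of tunicamycin 2 h, LOC101246688 was the only 1 of the 5 that kept its call over both times.

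**Figure D5:**
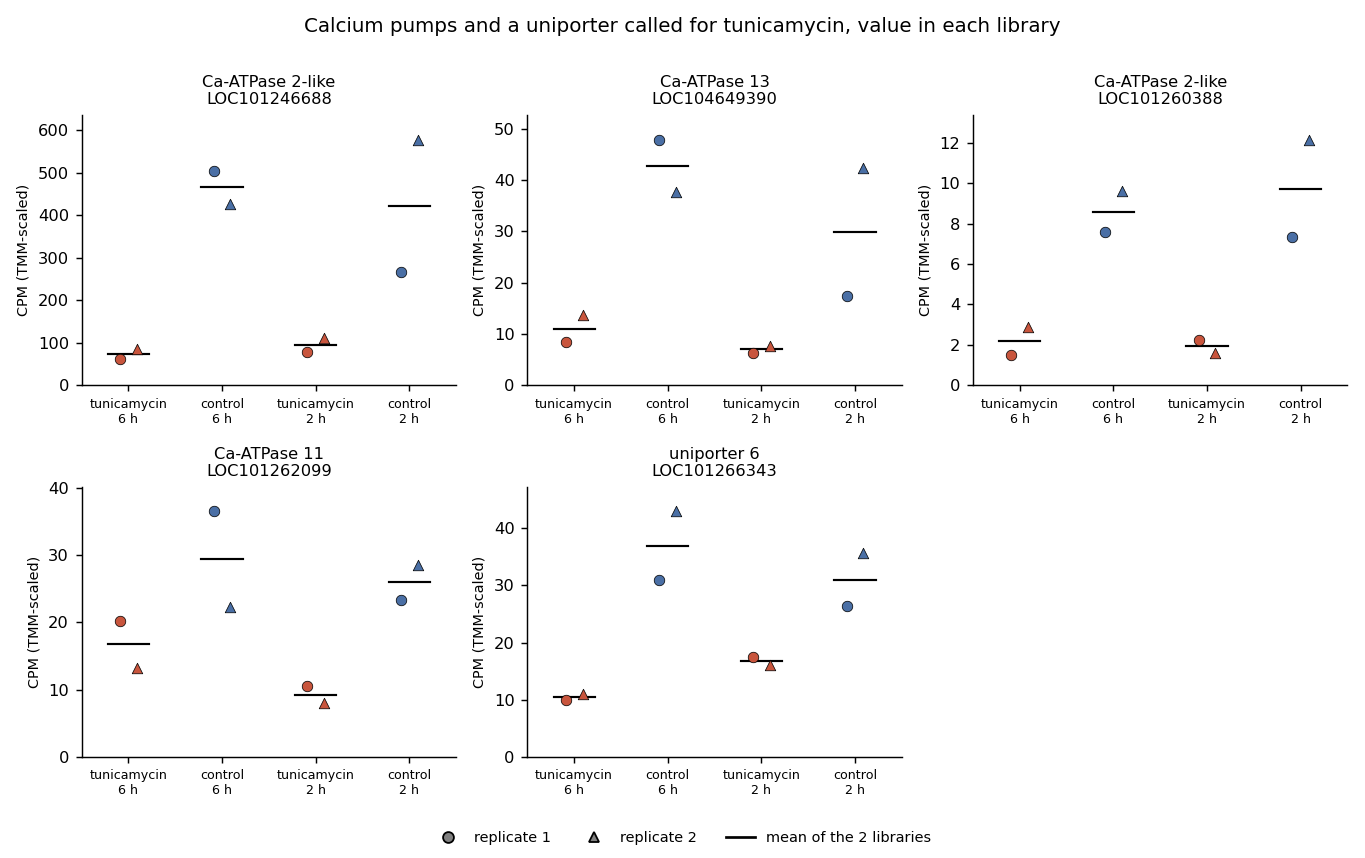
Level of the 4 calcium-transporting ATPases and the uniporter called for tunicamycin in each of the 8 libraries, in TMM-scaled CPM on an axis that starts at 0; circles are replicate 1, triangles replicate 2, and the line is the mean of the 2 libraries of a group. For ATPase 2-like LOC101246688 the tunicamycin libraries lie between 62.2 and 111 CPM and the control libraries between 267 and 578 CPM.

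None of the other families of that list held a gene that edgeR called for tunicamycin. Of 8 annexins, proteins that bind membranes in the presence of calcium, 7 were below 0 over both times, and annexin D4 (LOC101264862) had the smallest p, at -1.06 ± 0.28 (adjusted p 0.101). The sodium/calcium exchanger NCL1-like (LOC101251749) stood at -1.44 ± 0.34 (adjusted p 0.0642). Of 26 IQ-DOMAIN proteins, which bind calmodulin, 16 were above 0, led by IQ-DOMAIN 14 (LOC101260511) at 1.57 ± 0.43 (adjusted p 0.129). The values with the smallest p in the other families were -0.64 for CDPK-related kinase 5 (LOC101246189), -1.47 for the OSCA-type channel LOC101248892, -1.001 for the vacuolar cation/proton exchanger LOC101250779 and -0.27 for the two-pore channel LOC101244201, with adjusted p between 0.463 and 0.925. The NADPH oxidase LOC101251928 (respiratory burst oxidase B) and the MCA-type channel LOC101257153 had low counts and adjusted p of 0.878 and 0.99.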

How the data were processed

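RNA from tomato leaves was sequenced after a directional library preparation, per the labels, and the 8 libraries form 4 groups of 2 by their labelled treatment and time. The authors deposited a table of raw counts for 45845 transcripts and 3 tables of their own comparisons, whose fold changes and average abundance are on the log2 scale and which also hold a score (the F statistic), a p-value and a false discovery rate, per the file headers. The submitters' processing notes name Trimmomatic 0.40, with the aligner, counting program, genome build and strand setting not given in the sources used here. Reads of overlapping, antisense or closely related genes can therefore not be told apart, and p-values measure the spread between the labelled replicates. Counting intervals and floors cover counting error only.

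The analysis used edgeR 4.0.16 (R 4.3.3): filterByExpr (minimum count 10, minimum total 15), TMM scaling, and robust quasi-likelihood fits of 4 group means, with 4 residual degrees of freedom and a common biological coefficient of variation of 0.353. Benjamini-Hochberg adjustment ran over all 34483 transcripts tested. A standard error is the size of a log2 fold change over the root of its F value. Differences within depth use log2 CPM with a prior count of 2. DESeq2 1.42.0 was an alternative, beside other scaling, filtering, fits and left-out libraries. The procedure was tested on simulated data. The members, roles and lists were chosen with earlier results of these data known. Named were the called genes, in each role the genes with the smallest unadjusted p in each of 6 comparisons (2 genes for tunicamycin over both times) and the gene with the highest CPM, and the leading gene of each family of the list of other calcium genes. Every other gene named, among them SOS2, CaM1, CaM6, CBL1, CNGC5, CDPK1, CDPK29, CRCK2, the further CMLs, CCX4-like, CBP60, GLR2 and CNGC genes, CIPK3-type LOC101258032 and the members called in the authors' tables, was chosen after its values were seen or to complete a family. Descriptions of promoters and proteins were not made. No per-sample columns were left unused.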

Additional observations from a re-analysis of the deposited data

Results flagged for a closer look

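For 3 calcium genes every tunicamycin library lay on 1 side of the control libraries at 6 h and on the other side at 2 h. Of all genes, 11.8% were separated downward and 13.9% upward at 6 h, and 20% and 18.8% at 2 h. The share of all genes on opposite sides at the times was not counted, so the 3 are not read as a result about calcium genes. For the calmodulin-binding protein PICBP-like (LOC101252576) the tunicamycin libraries were below the controls at 6 h (12.8 and 8.47 CPM in tunicamycin leaves, 14.1 and 16.8 CPM in control leaves) and above them at 2 h (25.1 and 22.2 CPM in tunicamycin leaves, 10.2 and 17.2 CPM in control leaves). The difference of the tunicamycin effect, 6 h minus 2 h, was -1.303 on the log2 scale, with an unadjusted p of 0.0202 and an adjusted p of 1 in edgeR. For KRP1-like (LOC101245019) the tunicamycin libraries were above the controls at 6 h (2.42 and 3.55 CPM in tunicamycin leaves, 2.11 and 1.68 CPM in control leaves) and below them at 2 h (5.78 and 2.57 CPM in tunicamycin leaves, 6.51 and 7.96 CPM in control leaves). Its difference was 1.402, with an unadjusted p of 0.0752 and an adjusted p of 1. For the CIPK3-type kinase LOC101258032 the tunicamycin libraries were below the controls at 6 h (71.43 and 63.7 CPM in tunicamycin leaves, 71.49 and 75.2 CPM in control leaves) and above them at 2 h (67.8 and 74.0 CPM in tunicamycin leaves, 53.3 and 66.3 CPM in control leaves). Its difference was -0.36, with an unadjusted p of 0.426 and an adjusted p of 1.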

How the results depend on the processing

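The number of members called moved with the processing. The calls over all genes under each setting are not given here, so the shifts are not read as particular to calcium genes. For tunicamycin at 6 h, 5 in the report, it was 9 with DESeq2, 12 with no low-count filter, 3 with 1 transcript per gene in the fit, 3 with the replicate block, 0 when only the groups compared were fitted, and 0 to 5 with 1 library left out. Over both times, 8 in the report, it was 13 with DESeq2, 20 with no low-count filter and 1 to 12 with 1 library left out, and 7 with the replicate block. At 2 h, where the report has 0, it was 2 with DESeq2 and 6 with no low-count filter. For the difference of the effect it was 1 with no low-count filter in place of 0. For time in tunicamycin leaves, 0 in the report, it was 4 with DESeq2, 9 with no low-count filter, 1 with a term for depth, 1 when only the groups compared were fitted and 0 to 4 with 1 library left out. For time in control leaves, 0 in the report, it was 2 with DESeq2, 4 with no low-count filter and 0 to 2 with 1 library left out. The cause of these shifts was not tested. The replicate block moved no other count by over 1.5 times; it lost CBP60 B-like and CBP60 C at 6 h and the CDPK LOC100316879 over both times. The difference of replicate 1 minus replicate 2 correlated between groups at -0.177 to 0.167. Replicate 1 was the deeper library in the tunicamycin groups and the shallower one in the control groups. The correlations therefore mix depth with any pairing and cannot settle whether the numbers mark a pairing. Of 79 named results, 20 were called, and of the 59 not called 25 were called under some alternative. Directions turned for 3 uncalled genes with 1 library left out: CIPK3 (LOC101257694) ranged from -0.303 to 0.195, LOC101257153 from -3.933 to 3.522 and LOC101251928 from -1.478 to 2.271 on the log2 scale over both times. Fitting only the groups compared does not apply over both times or to the difference, which use all libraries. The shallower libraries limit genes of low counts.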
